A study of Schmidtea polychroa with 24 samples.

Results

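In embryos of the freshwater planarian Schmidtea polychroa, 118 of 22365 assembled genes were selected on a transient peak at 96 h or 120 h after egg deposition. Of these, 112 had their highest mean at 96 h and 6 at 120 h. With 120 h replicate 1 left out, the rule chose 137 genes, of which 93 peaked at 96 h and 44 at 120 h, so the split between the times depends on that library. They were chosen by the measured values themselves. A gene was kept if its mean over the 3 libraries of a time was highest at 96 h or 120 h, if it stood at 5 or more in each 96 h library, and if that peak was at least 3 times its mean at both 4 h and 168 h. The 60 genes of highest mean were left out beforehand. All genes that met these conditions were taken, since they were fewer than the upper limit of 150. Values are the authors' TMM-scaled signal summed over the isoforms of a gene. Its unit is not stated, and it behaves like a count divided by a length-like factor of the transcript. Levels are set side by side between genes on that reading, which was not checked against transcript lengths. The rise from 4 h and the fall to 168 h are properties of the choice. They are described below, and calls from a fit for these comparisons are listed once without anything being read from them.

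The libraries were made from cocoons of a sexual laboratory population, held at 20 °C and taken at 4, 24 or 32 h after they were laid, at 48 h, at 72 h, or later at 96, 120 or 168 h. No genotype, drug or knockdown was compared. Each of the 3 libraries per time held RNA from 4 whole cocoons, which contain several embryos and the maternal yolk cells around them. The totals ran from 1599902 to 9567933 counts per library, with a median of 3304781.

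Planarian cocoons are unusual in that the yolk is held in separate cells rather than in the egg. The cleaving cells scatter among the yolk cells, and the early embryo then builds temporary tissues, among them an embryonic pharynx that swallows yolk into a primitive gut. These temporary structures later degenerate while cells that stayed undifferentiated build the definitive organs, so some tissues of the embryo exist only for part of its development. The files pair no assembler ID with a gene name, so none of the 118 members can be given a function or assigned to such a tissue, and lists of tissue markers could not be used. Members are called below by their rank in the ratio of the peak to the higher of the means at 4 h and 168 h. In whole cocoons, fewer cells of a type and less RNA per cell cannot be told apart.

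The following 3 libraries stood apart from the others of their time, and all of them touch the members. Replicate 2 at 48 h was above both other 48 h libraries in 108 members (91.5%), against 52.1% of the 6716 genes at 5 or more in each 96 h library. Among the 1366 genes with a similar rise but no 3-fold fall by 168 h, described below as retained genes, it was 84.2%. It was above them by at least 3-fold in 93 members (78.8%), against 12.4% of those 6716 genes. Replicate 1 at 120 h was below both other 120 h libraries in 112 members (94.9%), against 67.2% of the 6716, and by at least 3-fold in 104 members (88.1%), against 40.5%. Over the 20888 genes used to compare libraries, none of them a member, the mean Spearman correlation of 48 h replicate 2 was highest with the 4 h libraries, at 0.770, followed by the 72 h libraries at 0.762, and was 0.609 with its own time. For 120 h replicate 1 it was highest with the 24 h libraries, at 0.804, and 0.724 with its own time. Replicate 3 at 72 h had the lowest correlation with its own time, 0.594, against 0.821 with 32 h and 0.820 with 24 h. Its single correlations with 72 h replicates 1 and 2 were 0.617 and 0.571, while those libraries had 0.885 with each other. It was below both of them in 59 members and above both in 11, which was counted for members only. Only 11 of the 24 libraries were closest to their own time by this measure. The main values that rest on these 3 libraries are given with and without them. At 32 h, replicate 2 was low in the members too: 95 of them were at 0 in it, against 37 and 33 in replicates 1 and 3. Its correlation was highest with its own time, at 0.780, and values without it are not given.

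The members held a share of the counted RNA that rose from 4 h to 96 h and was lower again at 168 h, as chosen. At 4 h it was 0.0359% ± 0.00202 (SD, n = 3). The 24 h libraries gave 0.0766% ± 0.0370 and the 32 h libraries 0.141% ± 0.0971. Of the 32 h libraries, replicate 2 held 0.0419%, and replicates 1 and 3 held 0.146% and 0.236%. At 48 h the shares were 0.0530%, 1.37% and 0.0497% in replicates 1, 2 and 3, so only the library that stood apart was above the range of the earlier times. At 72 h the libraries held 1.10%, 0.709% and 0.367%, each of them above every library of 4 h, 24 h and 32 h. The share was 1.51%, 2.31% and 2.47% at 96 h, with 2 of the 3 libraries above every library of the other times. At 120 h it was 0.181% in replicate 1 but 1.39% and 1.63% in the others, and at 168 h it was 0.370% ± 0.0549 (SD, n = 3). The level at 168 h was thus still above that of 4 h in every library, while the 120 h libraries other than replicate 1 overlapped the lower end of the 96 h range.

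**Figure D1:**
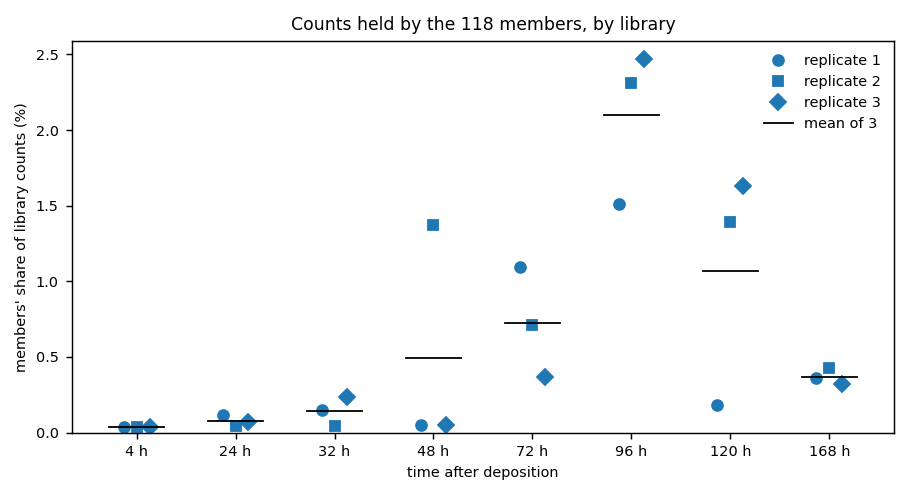
Share of each library's counts (%, y axis) held by the 118 members at each time after deposition (x axis); points are libraries and bars are means of 3. The 96 h libraries lie between 1.51% and 2.47%, and away from the others of their time lie 48 h replicate 2 at 1.37% and 120 h replicate 1 at 0.181%.

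Members differed widely in level. Their peak means ran from 6.12 to 1534 with a median of 35.4 on the TMM-scaled signal, 34 members reached 100 or more, and 40 stayed under 20. The 5 highest members held 35.8% of the summed member value at 96 h and the 10 highest held 52.1%. The ratio of the peak to the higher of 4 h and 168 h ran from 3.03 to 409.9, with a median of 5.86. It was at least 10 in 47 members, from 5 to 10 in 18 and under 5 in 53. In 111 members 168 h was the higher of the flanking times, and in 7 it was 4 h.

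The members just inside the ratio threshold had 3.06, 3.06 and 3.03, and the genes just outside it had 2.998, 2.98 and 2.98. At the other threshold, the members of lowest value in any 96 h library stood at 5.02, 5.07 and 5.17, and the nearest genes outside stood at 4.94, 4.65 and 4.56. A further 525 genes met every condition but the minimum at 96 h, and 232 missed only by having a ratio between 2 and 3. The set is thus cut from a continuous range, and its edge marks no gap. Another 1366 genes met the rule apart from its 168 h condition, with a peak at 96 h or 120 h and at least 3 times the 4 h mean, but were within 3-fold of the peak at 168 h. These retained genes serve below as the closest comparison.

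The course of a typical member was a slow start, a rise by 72 h and a highest mean at 96 h or 120 h, as chosen. At 4 h the median member stood at 0.255% of its own peak. It reached 1.85% by 24 h and 5.29% by 32 h, and then 21.1% in the mean of the 48 h libraries and 30.3% in that of the 72 h libraries. The 32 h value includes replicate 2, in which the median member was at 0. Without 48 h replicate 2 the median at 48 h was 0.127%, so the level at 48 h came from that library. Without 72 h replicate 3 the median at 72 h was 32.3%. At 120 h it stood at 50.3% of its peak and at 168 h at 17.1%. Without 120 h replicate 1, the median member's 120 h mean was 73.4% of its 96 h mean, 86 members were at 50% or more of the 96 h mean and 25 were above it. Where exactly after 96 h the decline began therefore depends on that library for many members.

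**Figure D2:**
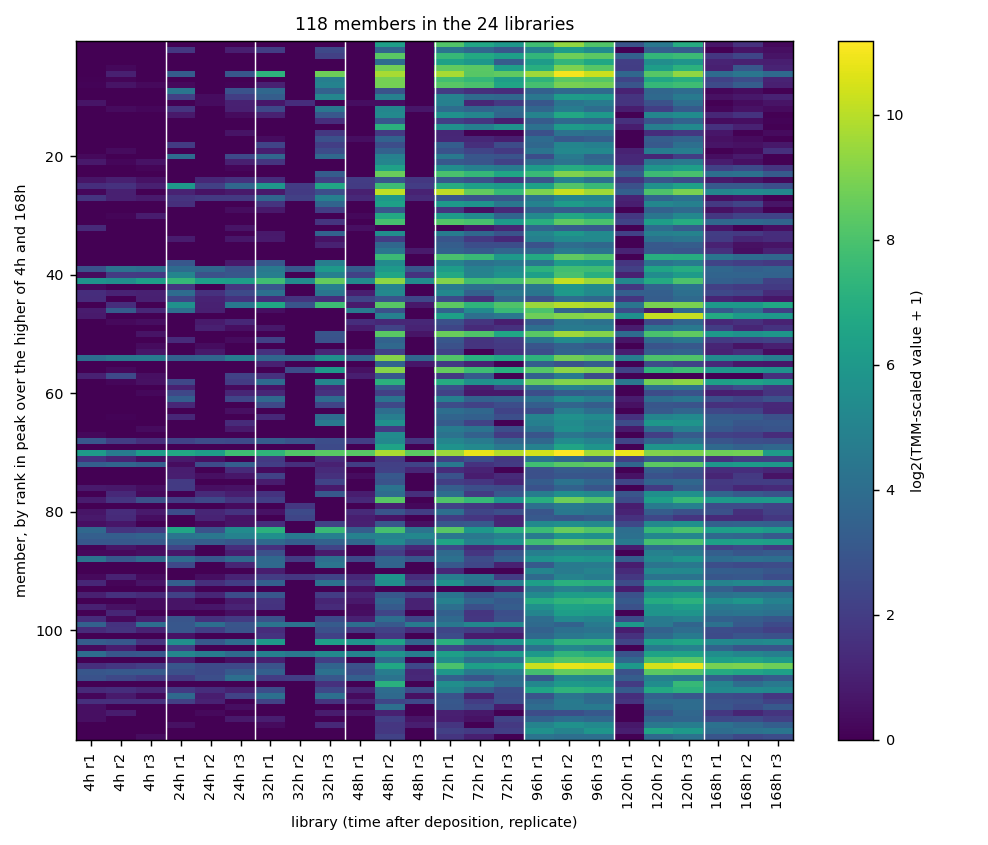
TMM-scaled signal of the 118 members (y axis, by rank in ratio) in each of the 24 libraries (x axis), as log2(value + 1). The 3 libraries of 96 h are bright throughout, as chosen, 48 h replicate 2 resembles the 72 h libraries, and 120 h replicate 1 is dark beside the other two of its time.

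Many members could not be detected early. In total over the 3 libraries of a time, 65 members had at most 3 counts at 4 h and 43 of these had none. The corresponding numbers were 50 and 26 in the 24 h libraries, 29 and 21 in the 32 h libraries, and 5 and 1 in the 48 h libraries. From 72 h on at most 4 members had so few. A value of 1 or more in all 3 libraries of a time was already reached by 20 members in the 4 h libraries. Another 10 members reached it by 24 h, 1 by 32 h, 2 by 48 h, 64 by 72 h and the last 21 by 96 h. These times follow the lowest library of each time and do not date an onset. Single libraries had 64, 23 and 81 members at 1 or more in replicates 1, 2 and 3 of 32 h. At 48 h they had 31, 113 and 37. A count of 0 means here only that the gene was not detectable at this depth, since the floor of 3 counts corresponds to 0.314 to 1.88 CPM.

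The member with the steepest peak was TRINITY_DN237419_c2_g1, rank 1, whose assembly holds 1 isoform. Its signal was 0 in all 9 libraries of 4 h, 24 h and 32 h. At 48 h it was 78.8 in replicate 2 and 0 in the other libraries. It stood at 279.6, 98.4 and 59.5 at 72 h and at 216, 666 and 278 at 96 h, so the 72 h and 96 h libraries overlapped. At 120 h it was 6.60, 21.1 and 119.8, all below every 96 h library, and at 168 h it was 0.605, 2.04 and 0.187. Against a floor of 3 counts over the 4 h libraries, its summed 96 h counts per library total were at least 1724-fold higher, and at least 948-fold higher over 24 h. Among the members, those most like it over the 24 libraries were ranks 4, 31 and 5, with Spearman correlations of 0.994, 0.973 and 0.964. The median member had 0.808 and the least like it 0.288. These are descriptions of shared libraries and a shared choice.

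TRINITY_DN223490_c0_g1, rank 2, followed a similar course at a lower level. It was 0 in each 4 h library, up to 2.56 at 24 h and up to 4.35 at 32 h. At 72 h it stood at 19.5, 12.3 and 6.95, and at 96 h at 29.7, 71.3 and 41.9. It fell to 0, 9.58 and 8.31 at 120 h and to 0, 0.520 and 0.338 at 168 h. The 96 h libraries lay above every library of the other times, and the 96 h counts were at least 175-fold higher than the 4 h floor.

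The members of highest peak mean, ranks 106 and 70, had other shapes than ranks 1 and 2. Rank 6, described below, was also high but had a steep ratio. TRINITY_DN234527_c0_g2, rank 106, had the highest peak, a mean of 1534 ± 246 (SD, n = 3). The 4 h libraries held between 1.88 and 3.19. The 72 h libraries held 247, 77.6 and 89.7, and the 96 h libraries 1258, 1729 and 1617. At 120 h it stood at 66.0 in replicate 1 and at 1392 and 1805 in the others, so without replicate 1 it did not fall by 120 h. At 168 h it was still 475, 509 and 425. In signal its largest rise came between 72 h and 96 h, a log2 difference of 3.29 ± 1.08 (SE) that was not called (edgeR adjusted p = 0.0512). The log2 difference from 24 h to 72 h was larger, at 4.95 ± 1.20 (SE; edgeR adjusted p = 0.0347).

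TRINITY_DN237297_c0_g1, rank 70, with a peak mean of 1498 ± 789 (SD, n = 3), rose gradually from the start. The 4 h libraries held 71.4, 24.3 and 72.5, and those of 32 h between 160.0 and 319. By 72 h it had reached 756, 1797 and 990. The 96 h libraries held 1422, 2322 and 749.5, which overlapped those of 72 h. It is one of 6 members for which 120 h replicate 1 was not below both others: there it stood at 1881, against 540.1 and 512. At 168 h it was 415, 449 and 69.4.

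**Figure D3:**
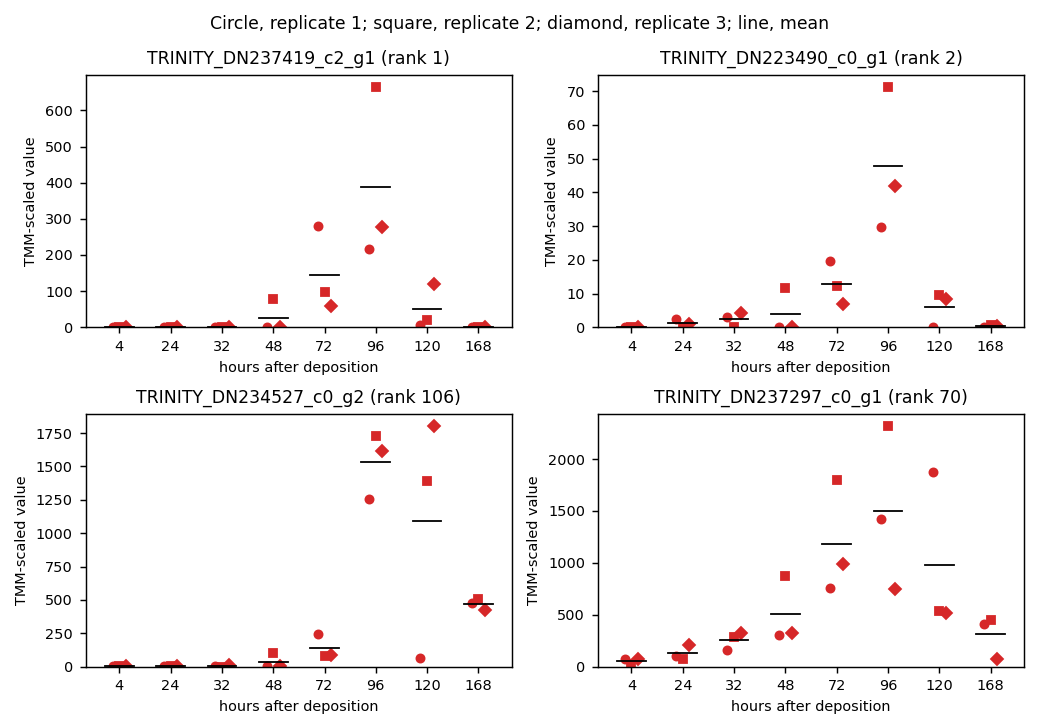
TMM-scaled signal (y axis, linear) of the 4 members printed by ID at each time after deposition (x axis), with 1 point per library and a bar at the mean of 3. Ranks 1 and 2 are near 0 outside 48 h to 120 h, rank 106 steps up between 72 h and 96 h, and rank 70 is already at 756 to 1797 at 72 h.

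Rank 6 combined a steep ratio with a high level, at 749, 2049 and 1254 at 96 h. The early libraries were uneven: at 32 h it was 151, 0 and 421, and at 48 h 0, 836 and 0. It stood at 830.2, 307 and 352 at 72 h, and had dropped to 14.1, 20.3 and 12.9 at 168 h. Of the 6 members with a 120 h peak, rank 47 was the most abundant, at 1191 in both 120 h replicates 2 and 3, 47.3 in replicate 1, and 422, 546 and 614 at 96 h. Rank 99 was the reverse of the usual 120 h pattern, with 65.7 in replicate 1 against 21.7 and 11.6, and without that library its 120 h mean of 16.7 was below its 72 h mean of 29.9.

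The choice did not set directly whether members were already up at 72 h, since neither 24 h nor 72 h carried a threshold. Both means only had to lie below the peak. Members had to be low at 4 h and high at 96 h or 120 h, however, so a rise between 24 h and 72 h was favoured by the choice. The share over all genes, which were not so chosen, is no matched background. The retained genes share these conditions but not the fall by 168 h. In edgeR's quasi-likelihood test on summed counts, 16 of 118 members rose from 24 h to 72 h and 0 fell, at a Benjamini-Hochberg adjusted p under 0.05. Over all 15587 genes tested, 0.5% were called higher and 1.73% lower. The 16 members were 13.6% of the members and 20.5% of the 78 genes called higher. Of the 1366 retained genes, 29 were called higher (2.12%). At an unadjusted p under 0.05 there were 73 members with a difference in either direction, beside 23.5% of all genes.

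The median member's log2 difference was 3.46 as fitted, and 2.89 when members with at most 3 counts at 24 h were set at the bound that 3 counts allow. It was 0.20 over all genes and 0.83 over the retained genes. Positive differences were found in 113 members. The same libraries were also counted without a model, which adds no separate evidence. Every 72 h library was above every 24 h library in 79 members (66.9%). This held in 33.3% of the retained genes and in 14.6% of the 6716 genes on at 96 h. Of the libraries that stood apart, 72 h replicate 3 is among those compared. Replicates 1 and 2 alone were above every 24 h library in 84 members, and replicate 3 in 96, which was counted for members only.

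The 16 called members were ranks 1, 4, 5, 8, 22, 26, 30, 31, 47, 50, 66, 70, 85, 91, 95 and 106. In each of them the lowest 72 h library was above the highest 24 h library. Of these, 11 had at most 3 counts in all 24 h libraries together, and their 72 h counts were at least 35.0-fold (rank 95) to 1955-fold (rank 8) higher than that floor. The other 5 had more than 3 counts at 24 h, though rank 91 had only 4. Rank 26 went from 1.08, 0.468 and 0.720 at 24 h to 1082, 363 and 178 at 72 h, a log2 difference of 9.56 ± 2.18 (SE; edgeR adjusted p = 0.0257). For rank 106 the log2 difference was 4.95 ± 1.20 (SE), with an adjusted p of 0.0347 from edgeR. For rank 70 it was 3.23 ± 0.75 (SE), with an adjusted p of 0.0279.

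Rank 85 had the smallest of these changes and the lowest adjusted p, from 9.94, 8.96 and 6.96 at 24 h to 95.5, 30.2 and 51.4 at 72 h, a log2 difference of 2.78 ± 0.56 (SE; edgeR adjusted p = 0.0128). Rank 91 rose as well, from 4 counts over the 24 h libraries to 95 over those of 72 h. Its log2 difference was 4.93 ± 1.30 (SE; edgeR adjusted p = 0.0471), from a 24 h level just above the floor of 3 counts. Rank 2 did not pass, with a log2 difference of 3.56 ± 1.59 (edgeR adjusted p = 0.181), although its 72 h libraries were all above its 24 h libraries.

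The number of members called was not stable. It was 0 when any 24 h library or 72 h replicate 1 or 2 was left out, 8 without 72 h replicate 3, 32 without 120 h replicate 1 and 40 without 48 h replicate 2. The shares of all genes called higher in the last 3 of these fits were 0.303%, 1.66% and 1.43%. Where 0 members were called, almost no gene was called higher. Of all genes it was 0, 0 and 4 without 24 h replicates 1, 2 and 3, and 1 without either 72 h replicate 1 or 2. The 48 h and 120 h libraries are outside the comparison but share its estimate of spread. With both of them removed, 57 members were called, beside 4.07% of all genes. DESeq2 tested 112 members and called 50 higher, beside 6.19% of the genes it tested.

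At 48 h against 24 h, edgeR called 0 members, with 49 at an unadjusted p under 0.05, beside 12.3% of all genes at that level. Over all genes, 0% were called higher and 0.00642% lower. DESeq2 called 24 of the 112 members it tested higher, beside 1.79% of its genes, and limma-trend called 0. The median member's log2 difference was 2.25, and it turned to -0.44 without 48 h replicate 2. In that library the median member was at 14.7 on the TMM-scaled signal, beside 0 in both others of its time, and 3 members were at 0 in it against 65 and 70. It was the highest of all 24 libraries for 15 members. A rise of the members by 48 h was thus seen in 1 library of 3, and its cause was not tested.

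The 10 members for which 48 h replicate 2 was not above both others were ranks 32, 46, 48, 72, 81, 84, 90, 93, 99 and 112. Rank 72 went from 21.5, 2.14 and 2.79 at 72 h to 215, 312 and 343 by 96 h. Rank 90 went from 1.36, 0 and 0 at 72 h to 33.4, 24.4 and 31.1 by 96 h. In both, every 96 h library was above every 72 h library by several fold.

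**Figure D4:**
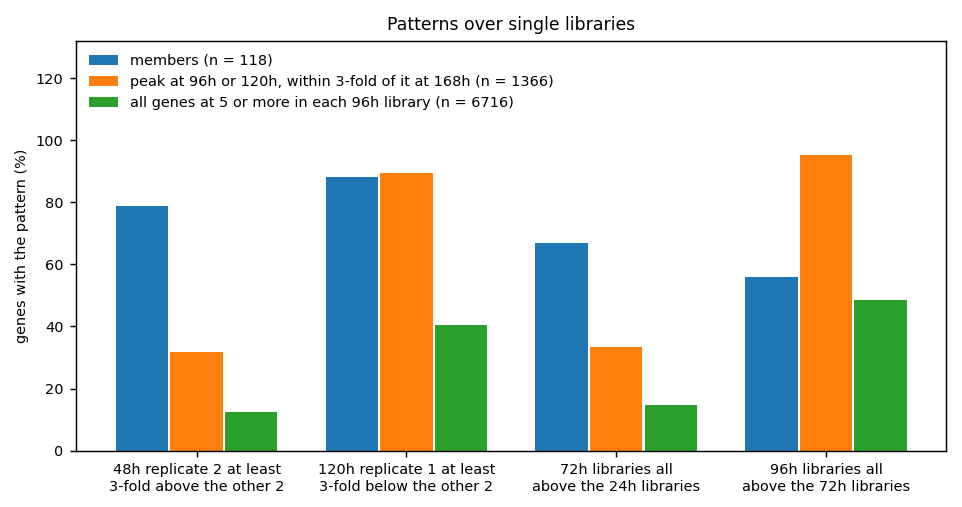
Share of genes (%, y axis) with each of 4 patterns over single libraries, for the 118 members, the 1366 retained genes and the 6716 genes at 5 or more in each 96 h library. Members lead in the 48 h replicate 2 pattern (78.8%) and in 72 h over 24 h (66.9%), while retained genes lead in 96 h over 72 h (95.1%).

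Members and retained genes differed in how often the 96 h libraries lay above those of 72 h. All 96 h libraries were above all 72 h libraries in 66 members (55.9%), in 95.1% of the retained genes and in 48.7% of the 6716 genes. The edgeR fit called 10 members (8.47%) higher at 96 h than at 72 h, against 9.14% of all genes and 684 of the 1366 retained genes (50.1%). The choice used the 96 h level of both sets and these differences are therefore descriptions. The pattern in 48 h replicate 2, at least 3-fold above both others, was found in 78.8% of members and 31.7% of retained genes. The pattern in 120 h replicate 1, at least 3-fold below both others, was found in 88.1% and 89.5%, so it did not set members apart from them. Both patterns together were found in 87 members (73.7%), 30.8% of the retained genes and 11.2% of the 6716.

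The decline after 96 h ran the other way. Every 96 h library was above 120 h replicates 2 and 3 in 31 members, against 0.586% of the retained genes and 6.16% of the 6716 genes. The choice took a peak at 96 h or 120 h and set neither time against the other. Members also had to fall at least 3-fold by 168 h, which the retained genes by definition did not, so this too is a description. At 120 h against 96 h the edgeR fit called 0 members and 0 of all 15587 genes.

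Members were also described by class of ratio. The 47 members with a ratio of 10 or more had a median of 44.8% of their peak in the 72 h mean, 33.9% in the 120 h mean and 2.88% in the 168 h mean. The 18 with a ratio from 5 to 10 stood at 21.3%, 46.9% and 11.7%. The 53 with a ratio under 5 stood at 20.5%, 62.7% and 28.6%. Without 120 h replicate 1 the medians at 120 h were 50.0%, 69.3% and 89.6% in the same order. In 48 h replicate 2 they were 81.1%, 58.7% and 24.1% of the peak. The 72 h libraries lay wholly above the 24 h libraries in 38 of 47, 11 of 18 and 30 of 53 members, and the test called 9, 1 and 6 of them. The 168 h values fix the classes. The percentages and the classes share the peak mean, so the differences between classes are a description and were not tested.

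**Figure D5:**
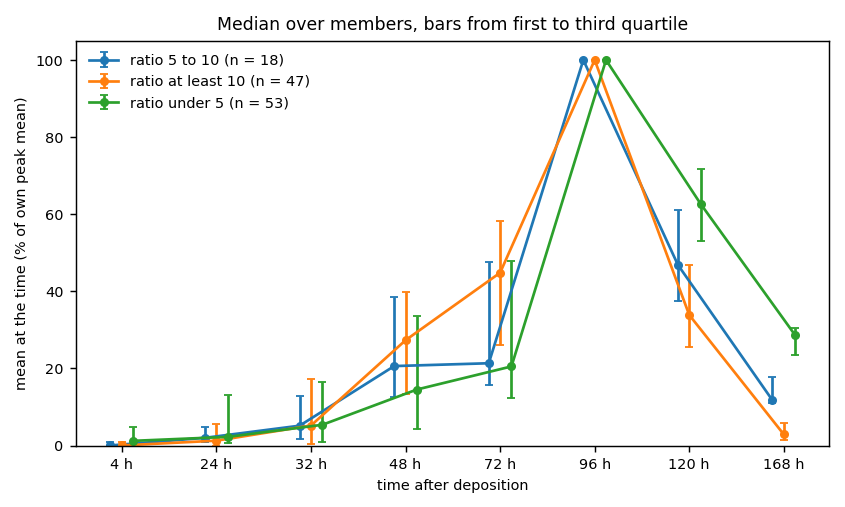
Median over members of the mean at each time, in % of the member's own peak mean (y axis), by time after deposition (x axis, times evenly spaced), for 3 classes of the ratio of the peak to the flanking times; bars run between the quartiles over members. The class with a ratio of at least 10 is higher at 72 h (44.8%) and lower at 120 h (33.9%) than the class under 5 (20.5% and 62.7%).

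For the comparisons that the choice used, the calls of the same edgeR fit are listed only for completeness, since the members were selected on these values. At 96 h against 4 h, 114 members were called higher, beside 22.3% of all genes. At 168 h against 96 h, 38 members were called lower, beside 4.73% of all genes, and at 168 h against 120 h 11 were called lower, beside 6.24%. At 168 h against 4 h, 62 members were called higher and 1 lower, beside 31.9% and 25.5% of all genes. The median coefficient of variation between the 96 h libraries was 34.2% and reached 153%. All 96 h libraries were above all 168 h libraries in 115 members (97.5%), against 23.2% of the 6716 genes and 45.0% of the retained genes. The 168 h libraries were all above the 4 h libraries in 89 members (75.4%), against 56.1% and 99.1%. They were all below them in 2 members (1.69%), against 27.8% and 0%.

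Replicate 2 was the highest of the 96 h libraries in 93 members (78.8%), against 75.4% of the 6716 genes and 64.0% of the retained genes. It was the highest of all 24 libraries in 70 members (59.3%), against 7.65% and 18.6%. How far the choice carries to libraries it did not use was checked by choosing genes without the libraries of one replicate number and reading the libraries left out. With number 1 left out, 83 of 150 chosen genes (55.3%) were at least 3-fold higher at 96 h than at 4 h and 168 h in the unused libraries, against 4.80% of the 7481 genes that met the 96 h minimum in the libraries used. With number 2 left out it was 48 of 150 (32%), against 6.65% of 8591 genes, and with number 3 it was 87 of 107 (81.3%), against 9.29% of 8096. The median ratio of the unused 96 h library to the higher of its 4 h and 168 h libraries was 3.43, 0 and 6.14 for numbers 1, 2 and 3.

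The share of members with a single assembled isoform was near that of all genes. It was above that of the genes on at 96 h, without a test of that difference, and was not counted for the retained genes. A single isoform was assembled for 61 members (51.7%), against 49.3% of all genes and 21.2% of the 6716 genes on at 96 h. The other 57 had up to 17. In 38 of these 57 the most abundant isoform was the same one in each 96 h library. The isoform that led at 96 h also led at 72 h in 46, at 120 h in 45 and at 168 h in 42. It held a median of 71.9% of the gene's value at 96 h, with a range of 22.3% to 100%, and at least 90% in 14 members.

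Rank 8, with 3 isoforms, is an example of a stable one: its leading isoform held 84.2%, 93.5% and 81.8% of the signal at 96 h and 81.0%, 96.9% and 82.3% at 72 h. Rank 106, with 4, had 71.5%, 65.6% and 72.6% in the 96 h libraries, beside 70.6%, 63.8% and 69.0% in those of 72 h. Rank 92, with 17 isoforms, was the opposite, since its leading isoform held 39.4%, 24.97% and 11.0% at 96 h and at most 1.21% at 72 h.

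Isoform usage was tested in 41 members with edgeR's diffSpliceDGE among 6396 genes. It called 0 members at 120 h against 96 h and 0 at 96 h against 72 h, with 0 members at an unadjusted p under 0.05 in either. The share called over all genes was 0% and 0.0938%. The gene-level F test of the same tool also called 0 members, with 1 and 0 at an unadjusted p under 0.05. In simulated counts for 120 h against 96 h with the spread of these libraries the test recovered no changed gene, so a count of 0 there does not show that usage stayed the same. No simulation was run for 96 h against 72 h.

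No member shared an assembler cluster with another member, so the 118 are not split copies of fewer genes by that measure. A cluster with other genes held 41 of them (34.7%), against 40.5% of all genes. The length-like factor implied by the counts and the scaled values was obtained for 115 members. Its median was 0.853 relative to the median of genes on at 96 h, with a range of 0.552 to 3.49, and the quartiles of those genes were 0.733 and 1.47. No nucleotide or protein sequence is printed, because none was at hand for these IDs.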

How the data were processed

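Per the labels' protocols, polyA RNA of whole cocoons was read as paired ends of 100 bp from strand-specific libraries. Tools listed in the submitters' processing notes are R 4.2.2 with edgeR 3.40.2 and limma 3.54.2, RSEM, Trimmomatic 0.32 and FastQC 0.11.2. Which aligner was used is not given in the sources used here. Per the file headers, the authors deposited RSEM expected counts for transcripts assembled by Trinity. They also deposited a TMM-scaled signal per transcript, per the file headers, whose unit is not stated. In these values a transcript's count is divided by a factor of the transcript, like a length, and one of the library. Errors upstream of these tables, such as a gene split in assembly, pass into both.

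The members and tests were chosen with earlier results of these data known. Members come from the signal table summed per assembler gene. Expected counts were rounded, summed per gene and fitted together for the 24 libraries in R 4.3.3 by edgeR 4.0.16 (filterByExpr, TMM, glmQLFit, glmQLFTest). Calls used a Benjamini-Hochberg adjusted p under 0.05 over all 15587 genes tested, and the common biological coefficient of variation was 0.684. All 118 members and 1366 retained genes passed the filter. Isoform usage used diffSpliceDGE. The tests were tried on simulated data. Also tried were DESeq2 1.42.0, its size factors within edgeR, limma-trend (limma 3.58.1) on log2(value + 1) and log2(value + 0.1), other filters and thresholds, a replicate block and leaving out libraries. Removing 48 h replicate 2 from the choice and from 72 h against 24 h, alone or with 120 h replicate 1, and the values without 72 h replicate 3 were added after seeing the data. Replicates are said to be biological, and no pair agreed within sampling noise (chi-square of at least 8.16 per degree of freedom). IDs printed are the 2 members of highest ratio with a peak of 10 or more and the 2 others of highest peak. SDs are over the libraries of a time and SEs come from the edgeR fit, so both include differences between cocoon pools. Floors cover counting error only.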

Additional observations from a re-analysis of the deposited data

How the results depend on the processing

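At 72 h against 24 h, 16 members were called. The number was 0 at an adjusted p under 0.01, 6 with no filter on low counts, 9 with DESeq2 size factors in edgeR, 9 with a filter of 1 CPM in 3 libraries, 27 with limma-trend on log2(value + 0.1), 43 of the 65 members tested in a fit of the 6 libraries compared alone, where 330 of 7727 genes were called higher, and 50 of the 112 tested by DESeq2. Of 15587 genes, 2 were called higher at an adjusted p under 0.01, 55 with DESeq2 size factors in edgeR and 139 with that limma-trend. It was 32 of 22363 genes with no filter and 38 of 21415 with the CPM filter. Leaving out single libraries gave 0 to 40 members called, and leaving out 48 h replicate 2 and 120 h replicate 1 together gave 57. With the replicate block it was 14, and the members called stayed at 0 with it at 48 h against 24 h and in both tests of isoform usage. The block was not run for the other comparisons. Same-numbered libraries deviated together by a mean correlation of only 0.007, 0.010 and -0.042, so the numbers were not taken to pair them. At 48 h against 24 h, DESeq2 called 24 of 112 in place of 0. Called counts of isoform usage were 0 in every alternative run. The rule found 118 genes, but 350 at a fold of 2, 65 at a fold of 5, 193 with a 96 h minimum of 1, 210 without the libraries of number 1, 225 without those of number 2, and 112 to 210 when single libraries were left out. Of the 118 members, 65 were still chosen at a fold of 5, 49 without number 2, and 51 to 118 when single libraries were left out, with 51 reached without 96 h replicate 2. The cause of these shifts was not tested. Depth limits members under 3 counts, whose fold changes are bounds.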

Other observations

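Of the single libraries left out of the choice (each of 4 h, 96 h, 120 h and 168 h, and 48 h replicate 2), 96 h replicate 2 changed the members chosen most. Of the 150 genes chosen without it, 51 were members and 99 were not. Since they entered only without that library, all 99 were bound to be low in it, and 97 were at 0 there. Their median value was 10.5 in 96 h replicate 1 and 13.9 in 96 h replicate 3. It was 2.18 in 120 h replicate 1 and at most 1.14 in every other library. Together they held 0.264% of the counts of 96 h replicate 1, 0.372% of those of replicate 3 and 0.337% of those of 120 h replicate 1, but 0.000123% in 96 h replicate 2. The last is 6 counts out of the 4884092 of that library, so these genes were present in some cocoon pools and all but missing from another of the same time. These genes were found after seeing the data, and no cause was tested.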
